A study of Rattus norvegicus with 12 samples.

Results

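The 6 genes described here are tied to reactive astrocytes and to signalling through STAT3, and were followed in rat spinal cord after injury: Gfap, Vim, Stat3, Socs3, Cd44 and Timp1. They were chosen by their Ensembl identifiers, and all 6 were among the 32883 genes of the deposited table. Their pairing with these symbols came with the request for the 6 genes, and 0 rows of the RefSeq table at hand carry an Ensembl identifier against which to check it. Cord at the ninth thoracic segment (T9) was sequenced from the 3' ends of transcripts in 12 libraries from Sprague Dawley rats, an outbred strain. Uninjured cord made up 4 libraries. Another 4 came from cord 5 days after hemisection at T9, a cut through 1 side, and are called injured here. The last 4 came from cord 5 days after the same injury in animals given epidural electrical stimulation over L2 to S1, and are called stimulated here. The labels give no age and no sex, and they do not say whether uninjured animals had sham surgery, whether injured animals carried electrodes, or which libraries come from separate animals, so p-values measure only the spread between these libraries.

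Astrocytes near a spinal lesion enlarge and add intermediate filaments, of which GFAP and vimentin are the best known. Cytokines of the interleukin-6 family act through the receptor subunit gp130 and JAK kinases to phosphorylate STAT3, which moves to the nucleus and activates genes, its own inhibitor SOCS3 among them. In spinal injury STAT3 in astrocytes is known for its part in forming the border around the lesion. CD44, a surface receptor for hyaluronan, and TIMP1, a secreted inhibitor of matrix metalloproteinases, belong to the matrix side of the same response, and both are also made by cells other than astrocytes.

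The stretch of 250 bases before the RefSeq transcript start is shown for the 2 filament genes, for Timp1 and for Stat3, because these 4 carry most of the results and 3 of them rose together. The sequences are RefSeq's for build GRCr8, whereas the submitters' processing notes name Rnor_6.0 for the counts. All 6 symbols had a match in the promoter table. Capitals mark matches to any of 4 motifs, searched on both strands: TTCNNNGAA, the usual STAT site, the same site with a gap 1 base longer, TGANTCA for AP-1, and TATAAA for a TATA box.
Gfap, chr10:88361662-88361911, minus strand: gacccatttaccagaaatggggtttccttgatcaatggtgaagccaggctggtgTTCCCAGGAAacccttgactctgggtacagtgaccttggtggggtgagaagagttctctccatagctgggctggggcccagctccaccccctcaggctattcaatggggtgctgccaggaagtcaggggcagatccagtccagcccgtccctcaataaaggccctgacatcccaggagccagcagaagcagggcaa
Vim, chr17:81577011-81577260, plus strand: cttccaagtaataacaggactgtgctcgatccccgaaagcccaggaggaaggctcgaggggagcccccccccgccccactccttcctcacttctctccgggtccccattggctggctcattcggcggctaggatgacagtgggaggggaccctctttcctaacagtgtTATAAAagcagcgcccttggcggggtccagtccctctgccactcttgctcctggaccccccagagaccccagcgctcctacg
Timp1, chrX:3771123-3771372, minus strand: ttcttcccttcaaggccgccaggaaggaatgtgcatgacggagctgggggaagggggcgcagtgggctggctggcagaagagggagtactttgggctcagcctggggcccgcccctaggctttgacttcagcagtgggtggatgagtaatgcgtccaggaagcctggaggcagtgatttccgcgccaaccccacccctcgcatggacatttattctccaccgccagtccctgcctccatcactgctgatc
Stat3, chr10:86363360-86363609, minus strand: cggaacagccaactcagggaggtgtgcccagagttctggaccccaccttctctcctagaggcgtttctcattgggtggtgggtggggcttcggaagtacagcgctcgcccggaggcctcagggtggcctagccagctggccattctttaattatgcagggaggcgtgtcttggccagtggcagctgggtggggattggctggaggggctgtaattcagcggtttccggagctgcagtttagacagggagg

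The motif TTCNNNGAA was in 0 of the 6 stretches, against 7.67% of all 33469 RefSeq promoters of that length. The STAT site with the longer gap occurred in Gfap only, 196 bases before the start, and in 6.25% of all promoters. TATAAA occurred in Vim only, 82 bases before the start, and in 12.9% of all promoters, and TGANTCA was in 0 of 6 and in 6.34% of all. These are matches of letters in a short window and say nothing of where a factor binds.

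Uninjured libraries held 254762 to 450114 counts, injured libraries 399386 to 553986 and stimulated libraries 204836 to 306186, so stimulated libraries were shallower than every injured library. In all 12 libraries the highest count of any gene lay between 4059 and 4094, just under 4096, the number of different identifiers of 6 bases. Levels below are CPM, counts scaled to a common library total, with totals adjusted by the trimmed mean of M-values (TMM). In these data each counted tag stands for a transcript end, so no length correction was applied. On the first principal component of 5280 tested genes other than the members, which held 52.3% of the variance, injured replicate 1 scored -0.149. The other 3 injured libraries scored 20.2 to 34.4 and uninjured libraries -56.8 to -47.3, so it lay between them, and the effect of leaving it out is given after the 3 comparisons. A filter on low counts kept 5285 genes for the test, Gfap, Vim, Stat3, Cd44 and Timp1 among them, and removed Socs3. In bulk cord a change in the number of cells of a type cannot be told apart from a change in RNA per cell. Markers of other cell types could not be looked up, because the identifiers had no symbols, and their part in the results was not tested.

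**Figure D1:**
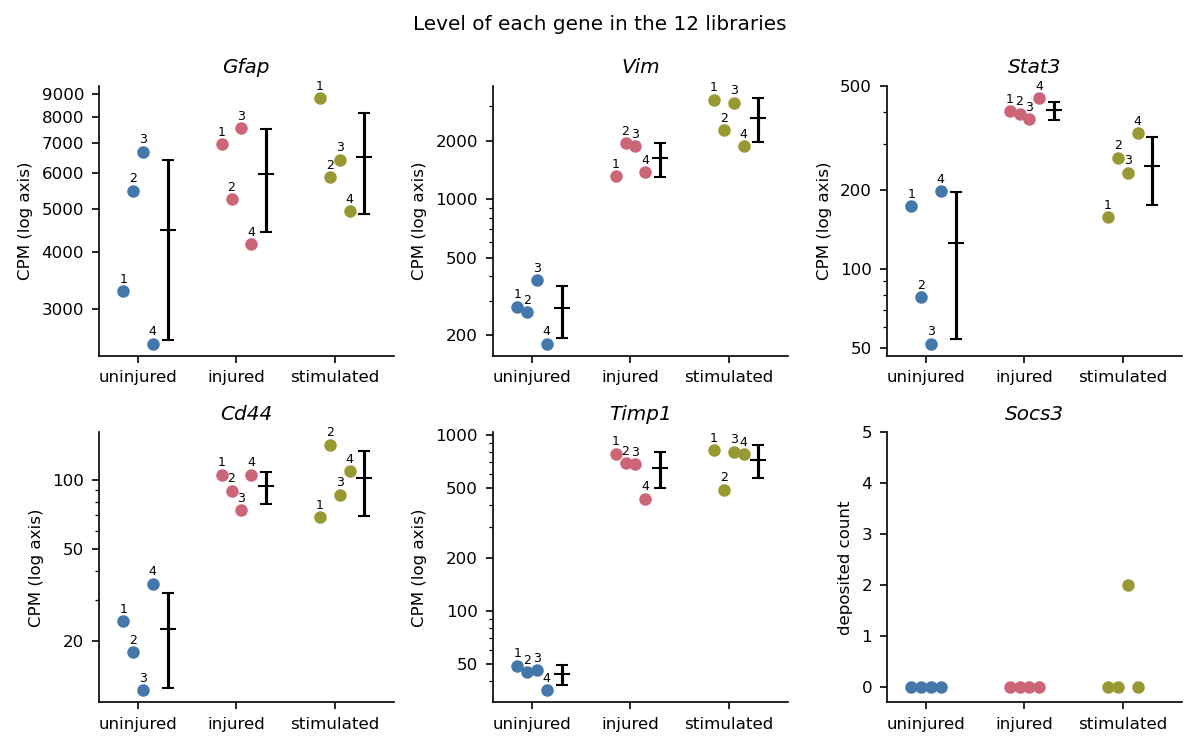
CPM of the 5 tested genes (log axes) and deposited count of Socs3 in each library, by group, with replicate numbers beside the points and the group mean and SD (black, n = 4). Vim, Cd44 and Timp1 separate all 4 uninjured libraries from all 8 others, Stat3 is higher in all 4 injured libraries than in all 8 others and overlaps between uninjured and stimulated libraries, Gfap overlaps throughout, and Socs3 has 2 counts in stimulated replicate 3 and 0 elsewhere.

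Gfap (ENSRNOG00000002919) encodes the filament protein that defines astrocytes, and it was the most abundant of the 6 genes in every library. Among all genes it ranked 12 to 35 in uninjured libraries, 4 to 15 in injured ones and 8 to 19 in stimulated ones. Its level in uninjured replicates 1 to 4 was 3287, 5488, 6689 and 2511 CPM. In injured replicates 1 to 4 it was 6953, 5256, 7544 and 4175 CPM. In stimulated replicates 1 to 4 it was 8790, 5872, 6424 and 4933 CPM. All 3 groups overlapped, and uninjured cord itself fell into 2 high and 2 low libraries. Group means were 4494 ± 1932, 5982 ± 1547 and 6505 ± 1643 CPM (SD, n = 4 each), in the order uninjured, injured, stimulated. Neighbours in that order did not differ beyond their spread. The log2 fold change of injured against uninjured cord was 0.41 (SE 0.32; quasi-likelihood test of edgeR, p adjusted by Benjamini-Hochberg = 0.366), with a limma-voom 95% interval of -0.19 to 1.13. Stimulated against uninjured cord gave 0.53 (SE 0.33, edgeR adjusted p = 0.226), with an interval of -0.07 to 1.27.

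Gfap was also the member nearest to the common upper limit of the counts. Uninjured libraries had 710 to 2454 counts of it, injured libraries 2167 to 3770 and stimulated libraries 1132 to 1789, which is 17.3% to 92.0% of 4096 over the 12. The highest counts were in injured libraries, although injured replicate 2, with 2167, was below uninjured replicates 2 and 3, with 2454 and 2190. If counts are numbers of distinct identifiers of 6 bases, each used equally often, the number of molecules behind a count can be estimated. That estimate was 1.10 times the deposited count in uninjured replicate 4 and 2.75 times in injured replicate 1, where 3770 became 10366. With it, the mean of Gfap was 6091 ± 3383 CPM without injury, 11808 ± 5833 CPM with injury and 8301 ± 2283 CPM with stimulation (SD, n = 4 each). The log2 fold change of injured against uninjured cord moved from 0.41 to 0.93 (edgeR adjusted p = 0.116). Stimulated against injured cord turned from 0.12 to -0.50 (edgeR adjusted p = 0.921 and 0.715). Neither direction of that difference passed the test. Vim moved little in the same correction, with a log2 fold change of 2.66 in place of 2.55 in injured against uninjured cord.

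**Figure D2:**
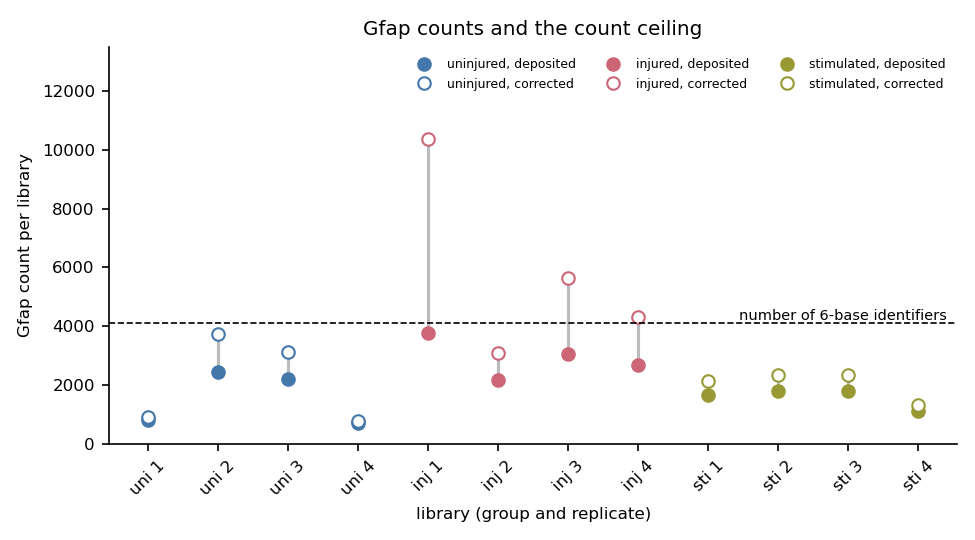
Gfap counts in each library as deposited (filled) and after the estimate for identifier collisions (open), with 4096 as a dashed line. The correction is small at 710 counts in uninjured replicate 4 and largest at 3770 counts in injured replicate 1, which becomes 10366.

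Vim (ENSRNOG00000018087) encodes vimentin, the filament of immature and reactive astrocytes, fibroblasts, endothelium and many immune cells, and it rose in both injured groups. Uninjured replicates 1 to 4 had 280, 262, 382 and 180 CPM. Injured replicates 1 to 4 had 1309, 1936, 1871 and 1372 CPM, and stimulated replicates 1 to 4 had 3252, 2257, 3135 and 1870 CPM. Every library with injury lay above every uninjured library, and the lowest stimulated library lay just below the 2 highest injured ones. The rise was 5.85-fold in injured cord, from 276 ± 82.8 to 1622 ± 327 CPM (SD, n = 4 each; log2 fold change 2.55, SE 0.31, edgeR adjusted p = 2.17e-05). Stimulated cord, at 2628 ± 673 CPM, was 9.49-fold above uninjured cord (log2 fold change 3.25, SE 0.32, edgeR adjusted p = 2.14e-06). By size of the rise Vim ranked 230 of the 5285 genes in injured and 147 in stimulated cord.

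The 2 filaments were then set against each other inside each library, where scaling between libraries plays no part. For every 100 Gfap counts uninjured libraries held 4.79 to 8.57 Vim counts, injured libraries 18.8 to 36.8 and stimulated libraries 37.0 to 48.8. The 3 ranges did not overlap, although the lowest stimulated value and the highest injured value nearly met. The mean ratio was 4.27-fold higher in injured than in uninjured cord and 1.47-fold higher in stimulated than in injured cord. Each difference had an exact two-sided permutation p = 0.0286 (n = 4 each), the smallest that 70 arrangements allow. The adjusted p was 0.0286 over the 3 tests of this ratio and 0.0686 over all 12 ratio tests run, and the latter does not pass 0.05. Without stimulated replicate 1, 2, 3 or 4 the log2 difference of stimulated and injured cord was 0.60, 0.58, 0.46 and 0.58. The remaining stimulated libraries still lay above all injured ones. The exact permutation p was then 0.0857, 0.114, 0.171 and 0.114. With groups of unequal size, arrangements of the opposite sign can exceed the observed difference. The higher p therefore does not show that the difference rests on 1 library. Without any 1 injured library the p stayed at 0.0286. After the estimate for identifier collisions the log2 difference of stimulated and injured cord was 1.07 in place of 0.55. That of injured and uninjured cord was 1.70 in place of 2.09, and those 2 groups then overlapped (exact permutation p = 0.0571, adjusted p = 0.137 over 12 tests). For Timp1 the same measure was 0.708 to 1.54 without injury, 9.03 to 13.2 with injury and 8.33 to 15.8 with stimulation. Its ratio was 10.1-fold higher in injured than in uninjured cord (exact permutation p = 0.0286, adjusted p = 0.0686 over 12 tests). The ratios of Stat3 and Cd44 to Gfap did not separate these groups. Their means were 2.62-fold and 2.98-fold higher in injured than in uninjured cord, with overlapping libraries (exact permutation p = 0.2 and 0.0571, adjusted p = 0.267 and 0.114 over 12 tests). In stimulated against injured cord the ratios of Stat3, Cd44 and Timp1 overlapped too (exact permutation p = 0.114, 0.971 and 0.943).

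**Figure D3:**
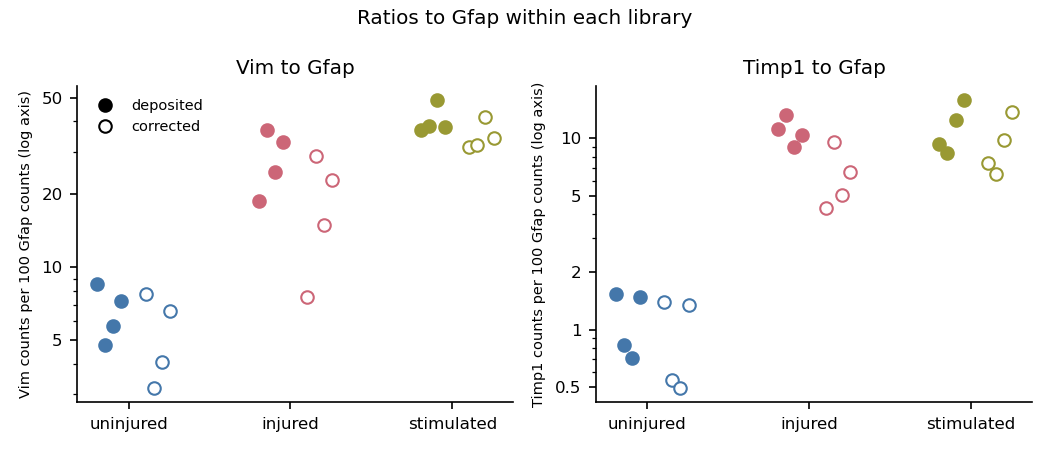
Counts of Vim (left) and Timp1 (right) for every 100 Gfap counts in each library (log axes), as deposited (filled) and after the estimate for identifier collisions (open). Uninjured libraries lie at 4.79 to 8.57 for Vim as deposited, below all injured (18.8 to 36.8) and stimulated (37.0 to 48.8) libraries.

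Stat3 (ENSRNOG00000019742) encodes the transcription factor of the pathway, and its own gene is among the targets it is known to activate. It rose 3.26-fold in injured cord. Uninjured replicates 1 to 4 had 175, 78.3, 51.9 and 198 CPM, from 17 to 56 counts. Injured replicates 1 to 4 had 402, 393, 375 and 450 CPM, and stimulated replicates 1 to 4 had 158, 267, 233 and 331 CPM. All injured libraries were above all others, while 1 stimulated library lay below 2 of the uninjured ones. The 4 injured libraries were also the most alike of the 3 groups, with a coefficient of variation of 7.90%, against 56.8% in uninjured and 29.1% in stimulated cord. They also had the most counts, 152 to 287, against 17 to 56 in uninjured and 30 to 81 in stimulated libraries. Counting error is larger at lower counts, and its part in these coefficients was not tested. The level went from 126 ± 71.4 CPM in uninjured to 405 ± 32.0 CPM in injured cord (SD, n = 4 each; log2 fold change 1.70, SE 0.36, edgeR adjusted p = 0.00184).

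In stimulated cord Stat3 stood between the other groups, at 247 ± 71.9 CPM (SD, n = 4). Against uninjured cord its log2 fold change was 1.00 (SE 0.37, edgeR adjusted p = 0.043), so it passed the threshold narrowly. The call was lost in 13 of 25 other settings, among them scaling to total counts (log2 fold change 0.95, adjusted p = 0.0619), and the direction was the same in all 25. It was lost without uninjured replicate 2 or 3, without any 1 of the 4 injured libraries, and without stimulated replicate 2, 3 or 4, with adjusted p between 0.0576 and 0.148. Without uninjured replicate 3 the log2 fold change was 0.69. Against injured cord Stat3 was at 0.61 of the level, with no overlap between the groups, a pattern seen downward in 2.55% of the genes tested. That difference did not pass the test (log2 fold change -0.71, SE 0.35, unadjusted p = 0.0595, edgeR adjusted p = 0.555), and its limma-voom 95% interval ran from -1.49 to 0.0079. Stimulated replicate 1, the lowest, had 30 Stat3 counts, which give 158 CPM with an exact Clopper-Pearson 95% interval of 107 to 226 CPM, for counting error only. With all libraries thinned to 204836 counts the log2 fold change was -0.67 (adjusted p = 0.553).

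Socs3 (ENSRNOG00000002946) encodes the feedback inhibitor that binds gp130 and JAK and damps STAT3 signalling. It was close to undetected: 2 counts in stimulated replicate 3 and 0 in each of the other 11 libraries. The count of 0 has an exact Clopper-Pearson 95% interval up to 2.78 CPM over the 4 uninjured libraries together and up to 1.98 CPM over the 4 injured ones. The 2 counts are 1.92 CPM over the 4 stimulated libraries (exact Clopper-Pearson 95% interval 0.233 to 6.94 CPM). These limits hold for tags counted under this identifier. Whether the identifier is that of Socs3 in the annotation used, and whether the annotated 3' end covers the tags, could not be checked, so low counts cannot be told apart from uncounted tags. No change of Socs3 was detectable in these counts, and no fold change is given.

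Cd44 (ENSRNOG00000006094) encodes the hyaluronan receptor, found on reactive astrocytes and on infiltrating immune cells, and it rose about as much in both injured groups. Its counts were low: 4 to 10 without injury, 30 to 67 with injury and 13 to 43 with stimulation. Uninjured replicates 1 to 4 had 24.4, 17.9, 12.2 and 35.4 CPM. Injured replicates 1 to 4 had 105.1, 89.7, 73.9 and 105.0 CPM, and stimulated replicates 1 to 4 had 68.6, 142, 86.2 and 109 CPM. The uninjured libraries were below all others, and the injured range lay within the stimulated one. The rise from uninjured cord was 4.23-fold with injury (2.08 ± 0.35 SE on the log2 scale, edgeR adjusted p = 0.000308). With injury and stimulation it was 4.61-fold (2.21 ± 0.36 SE, edgeR adjusted p = 0.000187). The means behind these folds were 22.5 ± 9.93, 93.4 ± 14.9 and 101 ± 31.6 CPM (SD, n = 4 each), in the order uninjured, injured, stimulated.

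Timp1 (ENSRNOG00000010208) encodes a secreted inhibitor of metalloproteinases made by astrocytes, fibroblasts and other cells under cytokine stimulation. It had the largest rise of the 5 genes tested. Uninjured replicates 1 to 4 had 48.7, 44.7, 45.8 and 35.4 CPM. Injured replicates 1 to 4 had 780, 691, 680 and 434 CPM, and stimulated replicates 1 to 4 had 818, 488, 801 and 776 CPM. The uninjured libraries were close to each other and far below all 8 others, and the 2 injured groups overlapped. From 43.7 ± 5.77 CPM it rose 14.6-fold to 646 ± 149 CPM in injured cord (SD, n = 4 each; log2 fold change 3.87, SE 0.32, edgeR adjusted p = 9.03e-07). In stimulated cord it was at 721 ± 156 CPM, 16.3-fold above uninjured cord (log2 fold change 4.03, SE 0.32, edgeR adjusted p = 3.51e-07). It ranked 66 by size of the rise and 3 by p-value among the 5285 genes in injured against uninjured cord. In GRCr8 the Timp1 gene lies inside the interval of Syn1, a neuronal gene, and the strand setting of the counting is not given in the sources used here, so tags of the 2 genes may have been counted together.

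In injured against uninjured cord, 4 of the 5 tested genes rose and none fell, where 16.8% of all 5285 genes rose at the same threshold. In stimulated against uninjured cord the same 4 rose, where 18.3% of all genes did. Both comparisons use the same uninjured libraries. The genes were chosen as known injury genes and with earlier results of these data in view, so their count is a description. The median log2 fold change of the 5 genes was that of Cd44, 2.08 with injury and 2.21 with injury and stimulation, while over all genes tested the medians were -0.0037 and 0.013. Their groups did not overlap for 4 of 5 genes with injury and 3 of 5 with injury and stimulation, where 16.6% and 16.0% of all genes lay wholly above the uninjured libraries. Vim, Stat3, Cd44 and Timp1 together made up 0.0458% ± 0.0045 of the counts of uninjured libraries, 0.293% ± 0.0233 of injured and 0.353% ± 0.0588 of stimulated ones (SD, n = 4 each). With Gfap, the most abundant member, all 5 made up 0.482% ± 0.172, 0.925% ± 0.145 and 0.974% ± 0.191.

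**Figure D4:**
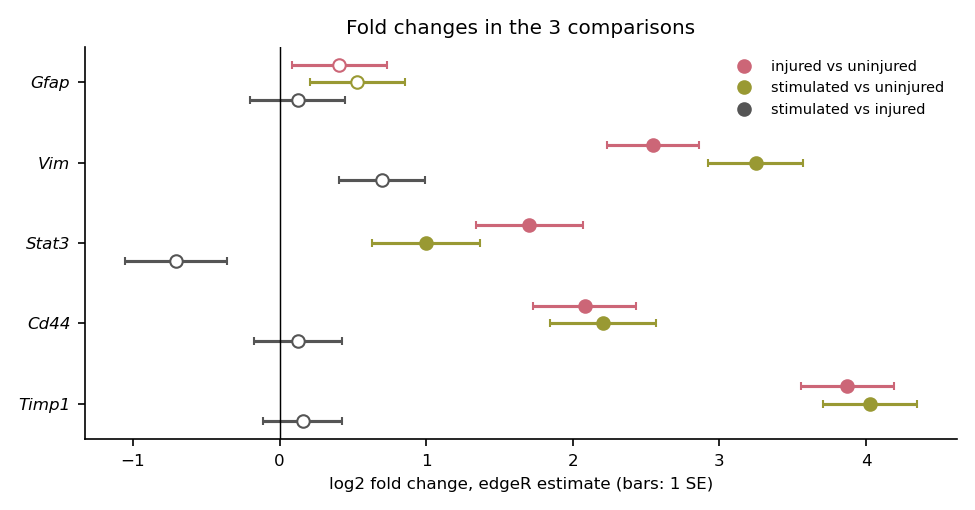
Log2 fold change of the 5 tested genes in the 3 comparisons (edgeR estimate, bars 1 SE), with filled points for adjusted p under 0.05 and open points otherwise. The 4 genes other than Gfap are filled against uninjured cord, and all 5 are open for stimulated against injured cord, with Vim at 0.70 and Stat3 at -0.71 farthest from 0.

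Stimulated against injured cord asked what stimulation adds at the lesion segment. None of the 5 genes passed the edgeR quasi-likelihood test, as for all genes tested (0%), while 9.29% of the 5285 genes had an unadjusted p under 0.05. DESeq2 called 1 gene of all and limma-voom with sample weights called 0, and neither called a member. Vim was 1.62-fold higher with stimulation (log2 fold change 0.70, SE 0.29, unadjusted p = 0.0293, edgeR adjusted p = 0.53), with a limma-voom 95% interval of 0.096 to 1.27. An unadjusted p under 0.05 with a higher level was found in 4.75% of all genes. The intervals for Cd44 (-0.49 to 0.71), Timp1 (-0.38 to 0.71) and Gfap (-0.53 to 0.79) lay within 2-fold in either direction for counts as deposited. No interval was computed for Gfap counts corrected for identifier collisions, where its log2 fold change was -0.50 (edgeR unadjusted p = 0.263). These 3 had log2 fold changes of 0.13, 0.16 and 0.12, and with scaling to total counts Cd44 and Gfap turned to -0.028 and -0.024. For Vim and Stat3, changes beyond 2-fold stay within the interval, so equal levels are not shown.

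Injured replicate 1 had member levels inside the range of its group for Gfap and Stat3, the lowest Vim level, the highest Timp1 level and a Cd44 level of 105 CPM, the same as in replicate 4. Without it, the log2 fold changes of injured against uninjured cord were 2.62 for Vim, 1.69 for Stat3, 2.0 for Cd44 and 3.75 for Timp1, and all 4 calls were kept. Gfap was then at 0.31 (edgeR adjusted p = 0.536). In stimulated against injured cord Vim was at 0.60 and Stat3 at -0.73 without it (edgeR adjusted p = 0.827 for each).

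Libraries of 1 group also differed from each other in a shared way. The first component of the within-group variation, taken from tested genes other than the members, held 39.5% of that variation and put 2 libraries of each group below 0 and 2 above. Those below 0 were uninjured replicates 2 and 3, injured replicates 1 and 3 and stimulated replicates 1 and 3. Replicate 3 was thus below 0, and replicate 4 above 0, in every group. Gfap was above its group mean in all 6 libraries below 0 and under it in all 6 libraries above 0, with mean deviations of 0.36 and -0.36 on the log2 CPM scale. Stat3 went the other way. It was under its group mean in all 6 libraries below 0 and above it in 5 of the 6 others, with mean deviations of -0.37 and 0.37. Cd44 was under its group mean in 5 of the 6 libraries below 0 and above it in 5 of the 6 above 0. Timp1, by contrast, was above its mean in 6 of the 6 libraries below 0 and in 3 of the 6 above. The 2 filament genes differed too, since Vim was above its mean in only 4 of the 6 libraries below 0. The libraries below 0 were the 2 deepest of their group in uninjured cord but not in the injured groups. What the component stands for was not tested.

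The component was computed from the within-group spread of these same 12 libraries, so as a covariate it lowers that spread by construction. Genes called with it rose from 1692 to 2240 of 5285 in injured, and from 1826 to 2307 in stimulated, against uninjured cord. The p-values below are therefore no independent support for a change. With that component as a covariate, a choice made after the data were seen, Gfap passed the test in stimulated against uninjured cord (log2 fold change 0.62, edgeR adjusted p = 0.0133). In injured against uninjured cord it stood at 0.48 with an edgeR adjusted p = 0.0502. For Vim and Stat3 in stimulated against injured cord the values were 0.66 and -0.75, with unadjusted p of 0.00572 and 0.00283 and edgeR adjusted p of 0.158 and 0.137. The calls of Vim, Stat3, Cd44 and Timp1 against uninjured cord were all kept.

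**Figure D5:**
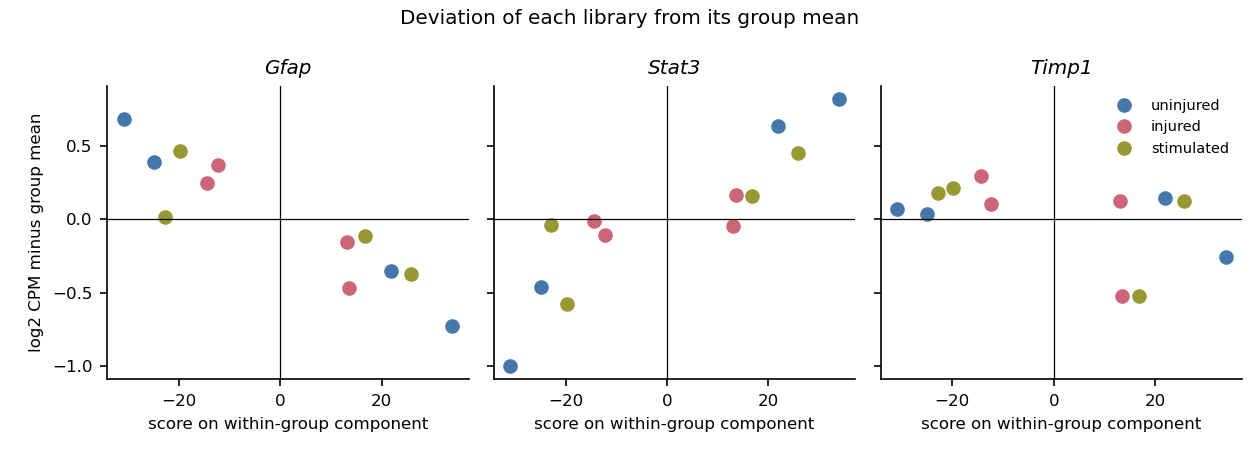
Deviation of log2 CPM from the group mean for Gfap, Stat3 and Timp1 (y axis) against the score of each library on the within-group component (x axis), coloured by group. Gfap falls from left to right (mean deviation 0.36 left of 0 and -0.36 right of it), Stat3 rises (-0.37 and 0.37), and Timp1 shows less spread.

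Genes with the most similar pattern were looked for among 3108 tested genes with a mean count of 20 or more, by Pearson correlation of log2 CPM with each member over the 12 libraries. The 12 libraries fall into groups, so for Vim, Stat3, Cd44 and Timp1 these correlations mainly describe a shared step between groups. For Gfap, whose groups overlapped, they do not. Its 5 closest genes were not called in injured against uninjured cord either (edgeR adjusted p from 0.0848 to 0.827). The closest pair was Vim with ENSRNOG00000011054 (r = 0.992), which rose from 145 ± 43.2 to 663 ± 102 CPM in injured cord and was at 883 ± 190 CPM in stimulated cord (SD, n = 4 each). Timp1 was closest to ENSRNOG00000010986 (r = 0.989), which rose from 19.4 ± 4.41 to 90.2 ± 11.6 CPM and was at 94.4 ± 16.8 CPM in stimulated cord. The highest correlation was 0.975 for Cd44, 0.968 for Gfap and 0.963 for Stat3. The genes are unnamed in the files.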

How the data were processed

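Rat T9 cord was profiled in 12 CEL-Seq2 libraries, 4 in each group, per the labels' protocols. The authors deposited a table of whole-number counts. HISAT2 2.0.4, HTSeq 0.6.0 and Rnor_6.0 appear in the submitters' processing notes without role or order. The annotation release, the strand setting and the treatment of molecular identifiers are not given in the sources.

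The analysis used R 4.3.3 and edgeR 4.0.16, with filterByExpr by group (5285 genes, 92.6% to 93.9% of counts), TMM factors and a robust quasi-likelihood fit of the 3 groups together, without covariates. P-values were adjusted over all tested genes in each of 3 contrasts, with a threshold of 0.05. The SE of a log2 fold change is its size over the root of the F statistic. Log2 CPM used a prior count of 2. Intervals came from limma 3.58.1 with voom. The code was tested on simulated counts. Ratios had 0.5 added to each count and were compared by exact permutation over 70 arrangements. The planned ratio of Socs3 to Stat3 was not run, as Socs3 had no counts in 11 libraries, and 3 other ratios to Gfap were added after the values were seen.

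Counts of libraries in the same group differed by more than sampling noise (chi-square over degrees of freedom, 2.95 to 10.0). The members and gene lists were chosen with earlier results of these data known. Lists of pathway genes and cell type markers needed symbols and were not used. Genes named by identifier, other than the members, are the closest to a member by correlation, held to the 2 highest. Alternatives were median-ratio factors, total counts, other library sizes, other filters, only 2 groups, the replicate block, limma-voom with sample weights, DESeq2 1.42.0, an identifier-collision estimate, thinning, each library left out, and a within-group component. Figures used matplotlib 3.10.9.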

Additional observations from a re-analysis of the deposited data

Results flagged for a closer look

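Values of the 4 libraries in each group were screened with Dixon's test for a value far from the rest. It marked 3 of 30 sets of values, and about 1.5 are marked by chance. For Timp1 the marked library was stimulated replicate 2, with 488 CPM against 776 to 818 CPM in its 3 companions. The log2 ratio of Vim to Gfap was -1.03 in stimulated replicate 3, against -1.43 to -1.38 in the rest of the group. Socs3 had 7.18 CPM in stimulated replicate 3, from 2 counts, against 0 in the rest, a gap that any group with counts in a lone library gives.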

How the results depend on the processing

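The calls of Vim, Stat3, Cd44 and Timp1 in injured against uninjured cord, and of Vim, Cd44 and Timp1 in stimulated against uninjured cord, were kept in all 25 other settings, whose log2 fold changes for Timp1 in injured cord were 3.75 to 4.12. No member was called between stimulated and injured cord in any of them. Gfap there changed sign in 5 of 25 settings, Cd44 in 3 and the other members in 0. Genes called between injured and uninjured cord were 1123 with a mean count of 20, against 1692. Between stimulated and injured cord they were 28 with no filter, 1 with DESeq2, 2 with the within-group component and 0 to 1 with a library left out, against 0. With the replicate block, 4 members were called in each comparison with uninjured cord and 0 in the other, so no call changed. For the ratio of Vim to Gfap, an exact permutation within same-numbered libraries cannot give less than p = 0.125. Same-numbered libraries deviated together (r over 0.1) in 7 of 12 pairs, with r from -0.34 to 0.43. Differently numbered libraries covered a similar range, from -0.45 to 0.49, so the numbers were not taken as pairing. Libraries numbered 3 did deviate together in each pair of groups (r = 0.32, 0.37 and 0.28), as did those numbered 4 (r = 0.43, 0.42 and 0.29). For numbers 1 and 2 r was between -0.34 and 0.12. Whether a shared step lies behind this was not tested. Socs3 had too few counts for any test, for a cause that was not tested. The count limit near 4096 bears most on Gfap.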
